A study of Mus musculus with 8 samples.

Results

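The genes described here are 10 transcription factor genes of mouse myotubes: 4 of the Fos family (Fos, Fosb, Fosl1, Fosl2), 3 of the Jun family (Jun, Junb, Jund) and 3 of the C/EBP family (Cebpa, Cebpb, Cebpd). They were chosen by symbol, as rows among the 53647 Ensembl gene identifiers counted in each library, and all 10 had enough reads to be tested. Fos and Jun proteins pair through a leucine zipper to form AP-1, which binds DNA as a Fos-Jun or Jun-Jun dimer. C/EBP proteins use the same kind of zipper, bind their own sites as dimers, and are known for acute-phase, adipogenic and inflammatory gene expression. Fos, Fosb, Jun and Junb are textbook immediate-early genes, which respond to serum and growth factors within the first hour, and Junb, Cebpb and Cebpd are known responders to cytokines that signal through gp130 and STAT3.

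The cells were primary myotubes, multinucleated fibres formed in culture from limb muscle myoblasts of wild-type pups aged 2 to 3 days, differentiated in 5% horse serum. All 4 groups share this source. OSM (oncostatin M), LIF (leukaemia inhibitory factor) or IL6 (interleukin 6) was given at 250 ng/ml for 48 h, the controls received none of these, and RNA was taken 72 h after the start of differentiation. There were 2 libraries per group, and the labels do not say whether these came from separate animals or dishes, so the p-values measure only the spread between these libraries, which may be technical. Library totals were 29482077 to 30025471 counts. The 9 myotube markers listed, among them Acta1, Ckm and Myh3, were all detected, with a summed level of 20010 to 24099 CPM over the 8 libraries, where CPM are the read counts of a gene relative to scaled library size.

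Sequence upstream of the genes is shown first, for a gene that rose with OSM and LIF in each family where RefSeq gave one, Fosl2 and Junb, and for Fos, which passed the test in no comparison. RefSeq promoter entries were found for 8 of the 10 genes, Fosl1 and Cebpd being without one. The 250 bases before the annotated start are printed 5′ to 3′, and the capitals mark TGACG, the first part of the cAMP response element TGACGTCA, on either strand.
Fosl2 (GRCm38.p6, chr5:32136222-32136471, plus strand): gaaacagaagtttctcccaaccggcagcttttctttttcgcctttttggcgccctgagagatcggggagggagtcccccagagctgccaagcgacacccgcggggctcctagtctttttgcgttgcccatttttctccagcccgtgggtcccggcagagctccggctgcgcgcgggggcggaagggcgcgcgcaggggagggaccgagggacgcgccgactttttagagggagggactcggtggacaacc
Junb (GRCm38.p6, chr8:84978749-84978998, minus strand): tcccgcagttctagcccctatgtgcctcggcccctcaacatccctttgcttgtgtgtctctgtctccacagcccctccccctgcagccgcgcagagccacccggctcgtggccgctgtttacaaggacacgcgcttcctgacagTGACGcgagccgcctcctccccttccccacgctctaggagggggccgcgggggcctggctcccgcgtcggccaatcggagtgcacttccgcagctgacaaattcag
Fos (GRCm38.p6, chr12:85473640-85473889, plus strand): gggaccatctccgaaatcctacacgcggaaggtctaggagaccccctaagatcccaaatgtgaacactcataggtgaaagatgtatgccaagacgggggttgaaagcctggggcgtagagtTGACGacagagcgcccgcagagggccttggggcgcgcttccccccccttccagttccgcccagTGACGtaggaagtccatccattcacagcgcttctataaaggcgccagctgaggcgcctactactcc
TGACG was found in 4 of the 8 windows, those of Fos, Fosb, Junb and Cebpb, and in 17.8% of all 32851 windows of this length. The window of Fosl2 holds none. In Fos it began 129 and 66 bases before the start, in Junb 106 bases and in Fosb 60 bases before it. The full element TGACGTCA was in none of the 8 windows and in 1.55% of all. The STAT motif TTCNNNGAA, searched on both strands, was in none of the 8 and in 7.02% of all windows, and the AP-1 motif TGANTCA was in none of the 8 and in 6.75% of all. The CArG box, which binds serum response factor, was in none of the 8 and in 1.47% of all. The C/EBP motif TTGCNNNAA was in the window of Jund alone, and in 8.29% of all. CCAAT was in 2 of the 8, beginning 65 bases before the start of Jun and 36 bases before that of Junb, and in 33.8% of all. These are letter matches in a short window and say nothing about sites elsewhere.

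In untreated myotubes the Jun genes had the highest levels per length. Per kilobase of exon (RPKM on scaled counts), Jund stood at 36.8 ± 0.244 (SD, n = 2), Junb at 35.4 ± 4.63, Jun at 27.0 ± 3.28, Fosl1 at 22.5 ± 2.14, Fosl2 at 18.7 ± 2.19, Cebpb at 17.7 ± 2.25, Fos at 5.65 ± 0.494, Cebpd at 4.47 ± 0.0810, Cebpa at 3.12 ± 0.135 and Fosb at 0.304 ± 0.0338. Among neighbours in this order, the libraries of Jund and Junb overlapped, as did those of Fosl2 and Cebpb, and the other neighbours did not overlap. Fosl1 and Fosl2 together carried most of the Fos family signal, 47.7% and 39.7% of the summed level per length, while Fos held 11.99% and Fosb 0.653%. These levels divide by all exon bases, of which 57.2% in Fosl1 and 52.6% in Jund lie opposite another gene. The strand setting of the counting is not given, and the effect of such overlaps on this order and these shares was not tested.

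**Figure D1:**
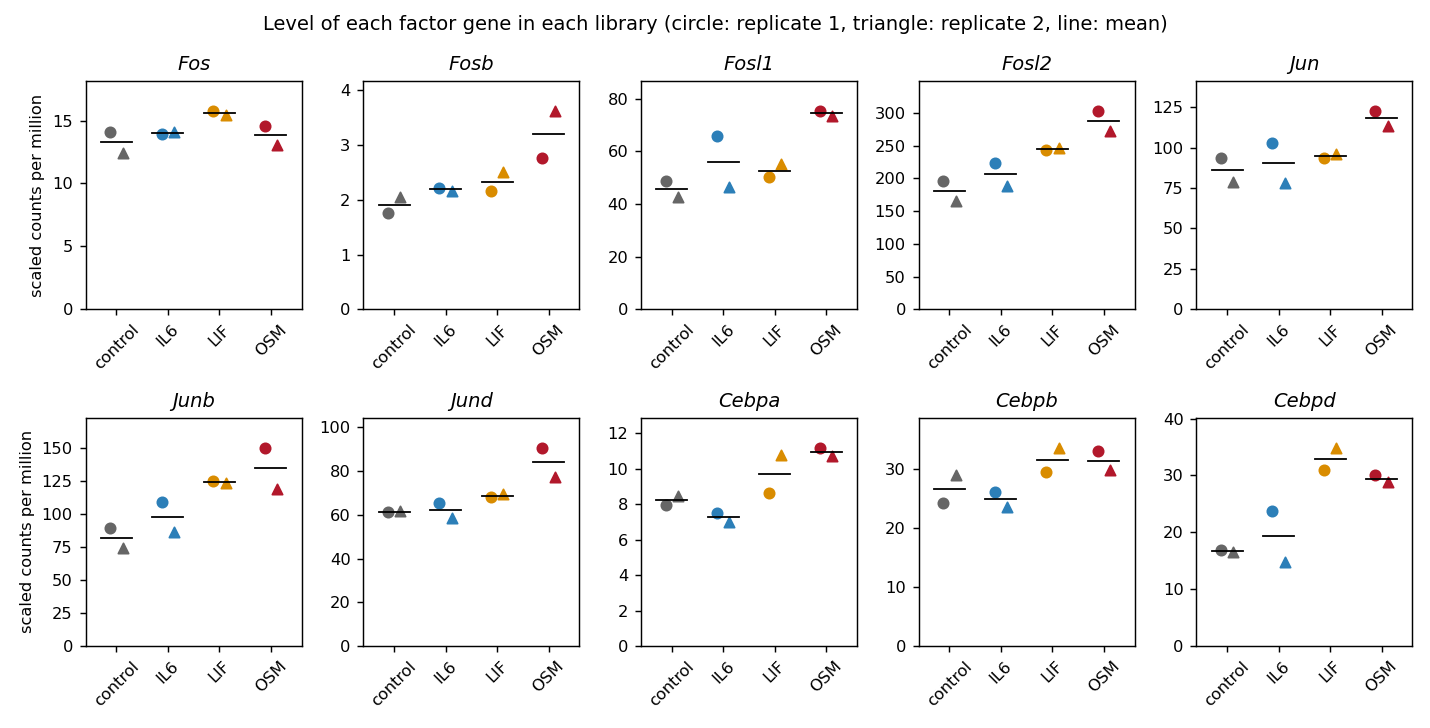
Level of each of the 10 genes in CPM (vertical axis, from 0, its own scale in each panel) in the 4 groups, with a circle for replicate 1, a triangle for replicate 2 and a line for the mean of 2. The OSM libraries lie above both controls in 9 of 10 panels, and the IL6 libraries lie far apart for Cebpd (23.7 and 14.8) and Fosl1 (66.0 and 46.3).

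Most of these factors were higher with OSM. Of the 10 genes 8 rose against control and 0 fell, where 10.7% of the 15603 genes tested rose, 10.5% fell and 21.2% changed in either direction. The rises were between 1.33-fold (Cebpa) and 1.76-fold (Cebpd). The median log2 change of the 10 was 0.56, against −0.0027 over all genes tested. Both OSM libraries lay above both controls for 9 of the 10, which held for 29.9% of all genes, and the exception was Fos. A gene was counted as changed at an adjusted p under 0.05 in edgeR's quasi-likelihood test with Benjamini-Hochberg adjustment over all genes, and adjusted p-values below are from that test. Without control replicate 2 the count fell to 4 of 10 (17.5% of all genes), and without control replicate 1 to 5 of 10 (14.4%).

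Markers of myotubes, proliferating myoblasts and connective tissue moved with OSM as well. The 9 myotube markers summed to 22992 to 24099 CPM in control and 20398 to 20579 CPM with OSM, where Myog fell by 0.53 and Myh8 by 0.20 on the log2 scale, Des rose by 0.30 and the other 6 did not pass. The summed level of 7 myoblast and proliferation markers went from 880 to 945 CPM in control down to 475 to 491 CPM with OSM, where Mki67, Ccnb1 and Top2a fell by 2.02, 1.99 and 1.78 on the log2 scale and 2 others rose, Pax7 among them by 0.39. That of 8 fibroblast markers went from 1652 to 1716 up to 2058 to 2166 CPM, where Col3a1, the most abundant, had 1433 ± 143 CPM in control (SD, n = 2) and 2018 ± 65.1 CPM with OSM and rose by 0.49, and Pdgfra rose by 0.53. Col1a1 of the same list read 239 ± 98.6 CPM in control and 78.4 ± 8.90 CPM with OSM, a log2 change of −1.61 that did not pass (adjusted p 0.0845), and 4 of the 8 never exceeded 3 counts, Lum and Tcf21 being at 0 in every library. Macrophage markers summed to 2.68 to 2.92 CPM in control and 5.13 to 5.44 CPM with OSM, where Cd68 rose by 1.03, and 4 of the 8 had at most 3 counts. Adipocyte markers summed to 0.412 to 0.571 CPM in control and 1.28 to 1.61 CPM with OSM, with Cfd at 0 and 5 of the 6 at no more than 3 counts. Endothelial markers reached at most 2.28 CPM in any library, with Emcn at 0, and Schwann cell markers at most 7.63 CPM. The part of these markers in the results for the 10 factors was not tested, and in bulk RNA fewer cells of a type cannot be told apart from less RNA per cell.

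Among the Fos family, Fosl2, which encodes the AP-1 subunit Fra-2, gave the lowest adjusted p of the 10 with OSM. Its CPM was 196.0 and 166.1 in the control libraries, 224.0 and 188.5 with IL6, 243.0 and 247.3 with LIF, and 303.4 and 271.9 with OSM. Both OSM libraries exceeded both LIF libraries, which in turn exceeded both controls, while the IL6 libraries overlapped the controls. The direct difference of OSM and LIF was 0.23 (95% interval 0.025 to 0.44) and did not pass (adjusted p 0.184). The log2 change with OSM was 0.67 (SE 0.095, adjusted p 0.000354), and it passed under each of the 14 other settings tried, at 0.56 to 0.79. With LIF it was 0.44 (SE 0.095, adjusted p 0.0150), a call that was lost without control replicate 2 (adjusted p 0.0797), without LIF replicate 1 (0.0840) and without LIF replicate 2 (0.120).

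Fosl1, which encodes Fra-1, rose with OSM and not detectably with LIF. It stood at 48.8 and 42.6 CPM in control, 66.0 and 46.3 with IL6, 50.3 and 55.0 with LIF, and 75.4 and 73.4 with OSM. The OSM libraries were above all others, and IL6 replicate 1 was far above IL6 replicate 2. The change with OSM was 0.70 (SE 0.14, adjusted p 0.00536), and 0.62 with an adjusted p of 0.0578 without control replicate 2. OSM and LIF differed by 0.50 (95% interval 0.19 to 0.81), which did not pass over all genes (adjusted p 0.0578). The same difference passed in 6 of the 14 other settings, at 0.44 to 0.56 over all 14. Among the 6 were DESeq2 (adjusted p 0.00254), DESeq2-style size factors in edgeR (0.0493) and a fit of the 2 groups alone (3.29e-06). It did not pass with upper-quartile scaling, without a filter on low counts, or without any control, LIF or OSM library. In GENCODE M21, 57.2% of the exon bases of Fosl1 lie opposite exons of Ccdc85b on the other strand. The strand setting of the counting is not given in the sources used here, so the reads of the pair may not be told apart. Ccdc85b also rose with OSM, by 0.69 (adjusted p 1.62e-05). With LIF, Ccdc85b rose by 0.33 (adjusted p 0.0143) while the change of Fosl1 was 0.21 (adjusted p 0.482).

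Fos did not pass the test with OSM, while Fosb, at a far lower level, did. Fos, the founding immediate-early gene of the family, had 14.1 and 12.5 CPM in control, 13.96 and 14.10 with IL6, 15.8 and 15.4 with LIF, and 14.6 and 13.1 with OSM. All groups lay within a narrow band, and the OSM and control libraries overlapped. Its log2 change was 0.059 with OSM (95% interval −0.17 to 0.29, adjusted p 0.748) and 0.23 with LIF (0.0097 to 0.46, adjusted p 0.222). Fosb, whose gene also encodes the shorter ΔFosB form that gene counts cannot separate, had only 51 to 108 counts per library. It read 1.75 and 2.05 CPM in control, 2.22 and 2.16 with IL6, 2.15 and 2.51 with LIF, and 2.77 and 3.62 with OSM, and the OSM libraries differed from the controls by a change of 0.75 (SE 0.22, adjusted p 0.0252). Both OSM libraries were above the other 6. The call was lost with the DESeq2 Wald test (adjusted p 0.0868), without control replicate 1 (0.134) and without OSM replicate 2 (0.221).

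In the Jun family, Junb rose with both OSM and LIF. Junb encodes an AP-1 subunit and is a known STAT3-responsive gene. Its CPM was 89.0 and 74.0 in control, 108.6 and 85.9 with IL6, 124.6 and 123.2 with LIF, and 150.1 and 118.4 with OSM. The LIF and OSM libraries all lay above both controls, and the OSM libraries spanned the LIF libraries. The change was 0.72 with OSM (SE 0.14, adjusted p 0.00539) and 0.60 with LIF (SE 0.14, adjusted p 0.0300). The OSM call was lost without control replicate 2 (adjusted p 0.0532). The LIF call was lost without each control or LIF library in turn (adjusted p 0.0607 to 0.184) and without a filter on low counts (0.121). The fitted difference of OSM and LIF was 0.12, with a 95% interval of −0.19 to 0.42 (adjusted p 0.717). The exons of Junb lie opposite Prdx2 over 7.52% of their bases, and Prdx2 rose with OSM by 0.20 (adjusted p 0.0262).

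Jund and Jun rose with OSM. Jund, whose product is commonly abundant in resting cells, stood at 61.1 and 61.7 CPM in control, 65.5 and 58.7 with IL6, 68.0 and 69.3 with LIF, and 90.8 and 77.5 with OSM. Both OSM libraries were the highest of the 8. The change with OSM was 0.45 (SE 0.081, adjusted p 0.00134) and passed under each of the 14 other settings. Jund was the 1 member that differed between OSM and LIF, by 0.29 (SE 0.080, adjusted p 0.0410), where 4.06% of all genes were higher with OSM and 8.02% differed. That call was lost with upper-quartile scaling (adjusted p 0.0505), without OSM replicate 1 (0.445), without LIF replicate 1 (0.296) and without LIF replicate 2 (0.181). Without either IL6 library 3 of the 10 passed in this comparison, Fosl1, Jun and Jund, with 10.8% of all genes in each case. Of the Jund exon bases 52.6% lie opposite Gm11175, which had 12 to 27 counts per library against 1742 to 2653 for Jund.

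Jun went from 93.4 and 78.6 CPM in control to 122.8 and 113.6 CPM with OSM, and had 102.9 and 78.0 CPM with IL6 and 93.8 and 96.1 CPM with LIF. The OSM libraries were above the other 6, and the LIF libraries were only just above the higher control. The change with OSM was 0.46 (SE 0.12, adjusted p 0.0211), and the change with LIF was 0.14 (95% interval −0.12 to 0.41, adjusted p 0.579). The OSM call was lost without control replicate 2 (adjusted p 0.115), without OSM replicate 1 (0.124) and without a filter on low counts (0.0546).

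Cebpd rose with both cytokines and had the highest fitted change of the 10 in each of these comparisons. C/EBPδ is an acute-phase regulator whose gene is commonly induced through STAT3. The libraries read 17.0 and 16.5 CPM in control, 23.7 and 14.8 with IL6, 30.9 and 34.9 with LIF, and 30.001 and 28.76 with OSM. The LIF and OSM libraries all lay above the other 4, and the LIF libraries were the highest. The change was 0.98 with LIF (1.97-fold, SE 0.17, adjusted p 0.00609) and 0.81 with OSM (1.76-fold, SE 0.17, adjusted p 0.00674). Between OSM and LIF it was −0.16, with a 95% interval of −0.52 to 0.19 (adjusted p 0.639). The change kept to 0.89 to 1.06 with LIF and 0.79 to 0.85 with OSM over the 14 other settings. Both calls were lost without either control library (adjusted p 0.0621 to 0.0666), and the LIF call also without LIF replicate 2 (0.0707). Of the exon bases of Cebpd, 15.003% lie opposite Spidr, which did not pass the test with OSM (log2 change −0.094, adjusted p 0.373) or LIF (0.11, adjusted p 0.413).

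Of the other C/EBP genes, Cebpa rose with OSM and Cebpb did not pass in either comparison. Cebpa, better known from adipocytes, liver and myeloid cells, had 208 to 327 counts per library, and read 7.96 and 8.46 CPM in control, 7.48 and 7.01 with IL6, 8.61 and 10.8 with LIF, and 11.2 and 10.7 with OSM. Its OSM libraries lay above both controls and its IL6 libraries below them. The change with OSM was 0.41 (SE 0.13, adjusted p 0.0365). This call was lost without any 1 of the control and OSM libraries (adjusted p 0.0667 to 0.188) and with the DESeq2 Wald test (0.0848). Cebpb, which encodes an activator form and a shorter inhibitory form that gene counts cannot separate, read 24.3 and 29.1 CPM in control, 26.2 and 23.6 with IL6, 29.53 and 33.70 with LIF, and 33.1 and 29.9 with OSM. Its change was 0.24 with OSM (95% interval 0.011 to 0.47, adjusted p 0.134) and 0.24 with LIF (0.017 to 0.47, adjusted p 0.207). Without control replicate 2 the OSM change was 0.38 and passed (adjusted p 0.0372). The exons of Cebpb lie opposite Tmem189 over 20.7% of their bases. Tmem189 had a mean of 5386 counts against 851 for Cebpb. It did not pass the test with OSM (log2 change −0.11, adjusted p 0.288) or LIF (0.0014, adjusted p 0.993).

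**Figure D2:**
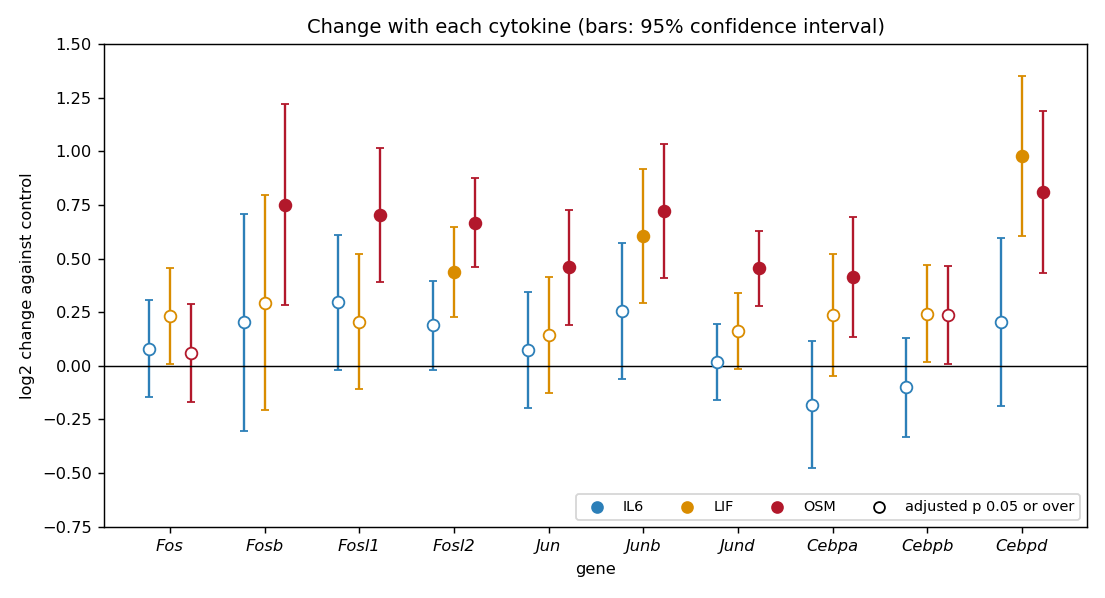
Log2 change of each gene against control (vertical axis) with IL6, LIF and OSM, with bars for the 95% confidence interval of the fit and filled points for an adjusted p under 0.05. Of the 10 genes 8 are filled for OSM, 3 for LIF and 0 for IL6, and Cebpd has the highest point for both OSM (0.81) and LIF (0.98).

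LIF gave fewer calls in this set. Fosl2, Junb and Cebpd rose and 0 of the 10 fell, where 4.18% of all genes tested rose, 3.52% fell and 7.7% changed. All 3 had also risen with OSM, a comparison that uses the same control libraries. Both LIF libraries lay above both controls for each of the 10 genes, which held for 25.2% of all genes, and the median change of the 10 was 0.24 against −0.0078 over all genes. Without control replicate 2, and likewise without LIF replicate 2, 0 of the 10 passed in edgeR (5.87% and 1.95% of all genes), and without control replicate 1 or LIF replicate 1 the count was 1 (5.41% and 2.69%). With the DESeq2 Wald test on all libraries 3 passed (7.74% of the 14423 genes given an adjusted p). Markers moved with LIF too. The myoblast and proliferation markers summed to 709 to 752 CPM with LIF, below the controls, where Ccnb1, Mki67 and Top2a fell by 0.64, 0.57 and 0.50. The fibroblast markers summed to 1983 to 2046 CPM, above the controls, where Col3a1 rose by 0.37. Of the myotube markers, Myog fell by 0.43 and Myh8 by 0.24, and Des rose by 0.55. Their part in the LIF results was not tested.

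None of the 10 passed the test with IL6. In edgeR 0 of 10 passed, 0 had an unadjusted p under 0.05, and 0 passed with the DESeq2 Wald test. Of all genes tested 0% passed in edgeR, where 808 had an unadjusted p under 0.05. In DESeq2 0.164% of the 10339 genes given an adjusted p passed. The log2 changes ran from −0.18 (Cebpa) to 0.30 (Fosl1). The 2 IL6 libraries differed for these genes. IL6 replicate 1 was higher than replicate 2 for 9 of the 10, by a median of 0.20 on the log2 scale and by 0.67 for Cebpd and 0.51 for Fosl1, while 50.1% of all genes were higher in replicate 1. The OSM libraries showed the same count, with replicate 1 higher for 9 of the 10 by a median of 0.13 against 49.5% of all genes, and replicate 1 was higher for 6 of the 10 in control and 2 of the 10 with LIF. In IL6 replicate 1 7.15% of alignments lay in no annotated gene, against 6.22% to 6.68% in the other 7, and its part in the result was not tested. Without IL6 replicate 2, Fosl1 (0.53, adjusted p 0.0131) and Cebpd (0.50, adjusted p 0.0373) passed, with 1.13% of all genes. Without IL6 replicate 1 the change of Cebpd was −0.17 and 0 of the 10 passed, with 0.0187% of all genes. Without IL6 replicate 2, 2 immediate-early genes, 2 AP-1 targets and 3 C/EBP targets of the lists described below also passed. The IL6 libraries also enter the spread that all comparisons share: without IL6 replicate 2, the adjusted p of Cebpd was 6.52e-06 with OSM and 4.50e-06 with LIF.

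OSM against IL6 separated 5 of the 10 genes, all higher with OSM, where 8.09% of all genes were higher and 15.6% differed. They were Jund (log2 difference 0.44, adjusted p 0.00217), Fosl2 (0.48, adjusted p 0.00443), Cebpa (0.59, adjusted p 0.00743), Cebpd (0.61, adjusted p 0.0326) and Cebpb (0.34, adjusted p 0.0466). Junb (0.46, adjusted p 0.0505) and Jun (0.39, adjusted p 0.0555) did not pass. Without OSM replicate 1 the count was 0 of 10 (6.9% of all genes), without IL6 replicate 1 it was 8 (14.2%), and without IL6 replicate 2 it was 3 (15.4%). The Cebpd call was lost in 7 of the 14 other settings, and the difference was 0.31 without IL6 replicate 2 but 0.99 when IL6 replicate 1 was left out. The Cebpb call was lost in 6 of the 14, among them upper-quartile scaling (adjusted p 0.0643) and leaving out LIF replicate 1 (0.0605) or LIF replicate 2 (0.0609). LIF against IL6 separated 1, Cebpd, by 0.77 (adjusted p 0.0388), where 1.73% of all genes were higher with LIF and 2.76% differed. That call was lost without any 1 of the control, LIF and OSM libraries (adjusted p 0.0651 to 0.291) and in a fit of the 2 groups alone (0.112).

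**Figure D3:**
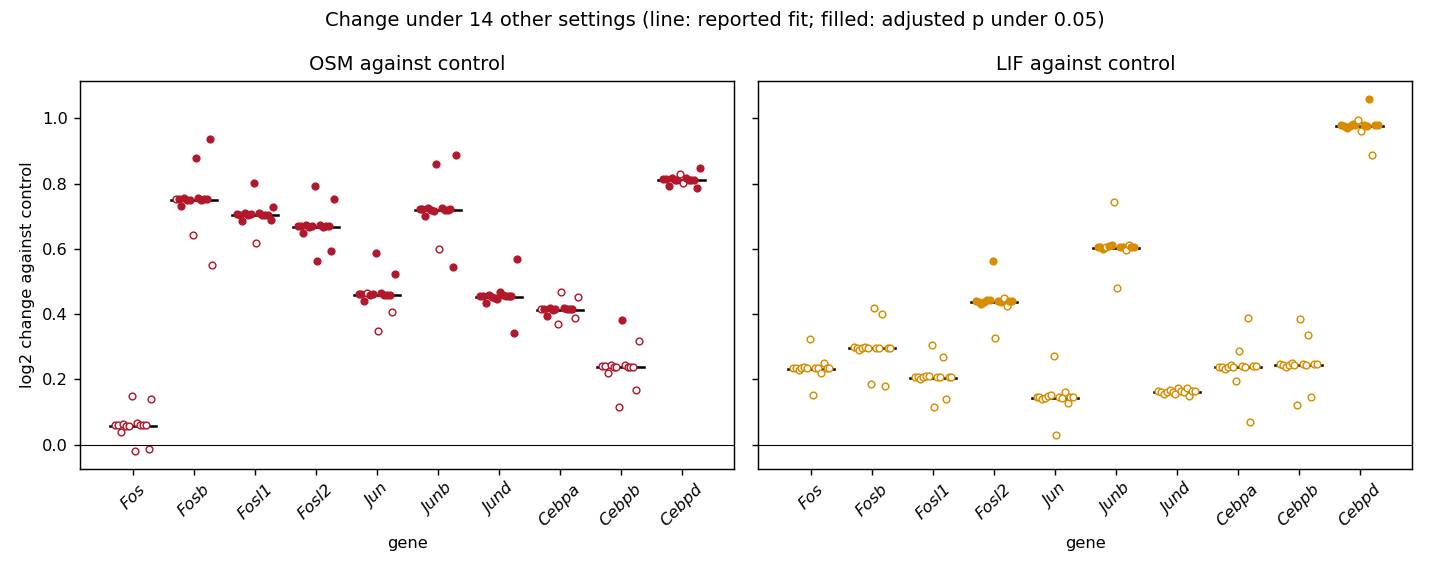
Log2 change against control (vertical axis) of each gene with OSM (left) and LIF (right) in the reported fit (black line) and under 14 other settings (points, filled where the adjusted p is under 0.05). Fosl2 and Jund are filled throughout for OSM, and the points of Cebpd stay between 0.89 and 1.06 for LIF while 3 of them are open.

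The make-up of each family shifted modestly, as measured within libraries per length and described without a test. The limit given above for levels per length, from exons that overlap another gene, holds for these shares and ratios too. Cebpd supplied 17.7% ± 1.93 (SD, n = 2) of the summed C/EBP level in control, 26.3% ± 0.341 with LIF and 23.8% ± 0.656 with OSM, and the ratio of Cebpd to Cebpb was 0.280 and 0.228 in the controls, 0.421 and 0.416 with LIF, 0.364 and 0.387 with OSM, and 0.363 and 0.252 with IL6. The LIF and OSM ratios did not overlap the controls, and the IL6 ratios did. Junb over Jun was 1.322 and 1.305 in control, 1.84 and 1.78 with LIF, 1.69 and 1.44 with OSM, and 1.46 and 1.53 with IL6, so all 6 cytokine libraries lay above both controls. The share of Fos in its family was 11.9% to 12.1% in control and 7.91% to 8.25% with OSM, while Fosl1 and Fosl2 rose and Fos did not pass. The summed level per length of the 4 Fos family genes was 47.1 ± 4.79 in control and 72.7 ± 3.37 with OSM, and that of the 3 Jun genes 99.2 ± 7.66 and 145.8 ± 17.4.

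**Figure D4:**
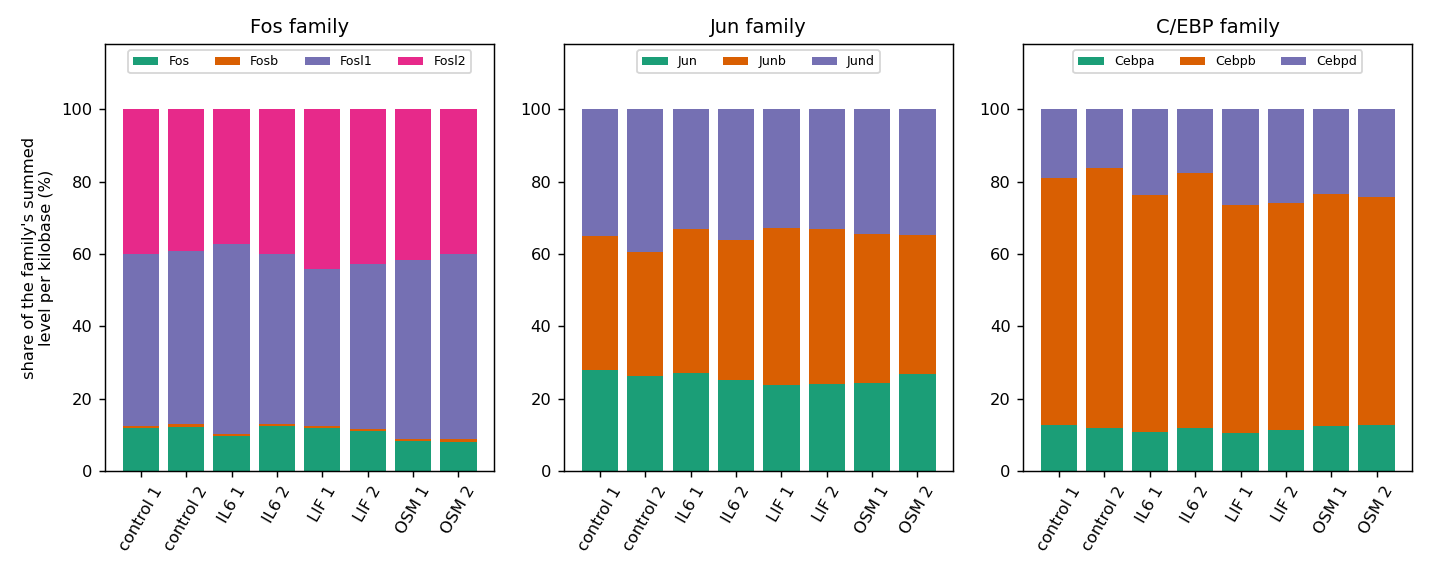
Share of each gene in the summed level per kilobase of its family (vertical axis, percent) in each of the 8 libraries, as stacked bars for the Fos, Jun and C/EBP families. The Cebpd segment is larger in the LIF and OSM libraries than in the controls, and the Fos segment is smallest with OSM.

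Genes around these factors were read from 4 lists. Other leucine-zipper factors that pair with Fos, Jun and C/EBP proteins or are only related to them, partners for short, were called in both directions. Of 32 listed 29 were tested. With OSM 4 rose and 5 fell, and with LIF 1 rose and 2 fell, with medians of −0.052 and −0.0094, and with IL6 0 changed. Of all genes tested, 10.7% rose and 10.5% fell with OSM, and 4.18% rose and 3.52% fell with LIF. In either direction 31% of the tested partners changed with OSM, against 21.2% of all genes, and 10.3% with LIF, against 7.7%. The OSM count of 9 was lower without control replicate 1 or either OSM library, and so was the share of all genes called. The LIF count of 3 was lower without either LIF library and higher without either IL6 library, and the share of all genes called moved the same way. Maff, a small Maf protein gene, had 67.2 ± 6.16 CPM in control (SD, n = 2) and 98.2 ± 3.18 CPM under OSM, and rose by 0.55 on the log2 scale (adjusted p 0.000149). Bach2 rose by 0.53, Creb3 by 0.23 and Nfil3 by 0.20. Ddit3, the stress-induced C/EBP relative CHOP that blocks C/EBP binding, went from 125.2 ± 0.704 to 63.9 ± 9.98 CPM, and fell by 0.97 (adjusted p 0.000299). Atf5 fell by 0.63, Jdp2, an AP-1 repressor, by 0.39 and Atf4 by 0.30. With LIF, Nfil3 rose by 0.35, Jdp2 fell by 0.48 and Atf5 by 0.36. Batf, Batf2 and Cebpe, with at most 5 counts in any library, were not tested.

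Among immediate-early genes outside the 3 families more rose than fell with OSM. Of 36 listed 35 were tested, and 18 rose and 3 fell with OSM, with a median of 0.47. With LIF 4 rose and 2 fell, with a median of 0.064, and with IL6 0 changed. In either direction 60% of those tested changed with OSM, against 21.2% of all genes, and 17.1% with LIF, against 7.7%. Egr2, a zinc-finger factor of serum response, went from 9.31 ± 0.958 to 25.1 ± 1.08 CPM with OSM, by 1.43 (adjusted p 1.62e-05). Errfi1, a feedback inhibitor of the EGF receptor, rose by 1.01, Ier5l by 0.99, and the STAT3 feedback inhibitor Socs3 by 1.37 with OSM and 1.47 with LIF. The orphan receptor genes Nr4a3, Nr4a2 and Nr4a1 fell with OSM by 0.90, 0.88 and 0.52. With LIF, Zfp36 rose by 0.58, Btg2 by 0.40 and Btg1 by 0.28, and the matricellular genes Ccn2 and Ccn1 fell by 1.14 and 0.43. The LIF count of 6 was 10 in a fit of the 2 groups alone (8.36% of all genes). It was lower without either LIF library, and so was the share of all genes called.

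Textbook AP-1 targets went both ways. Of 32 listed 26 were tested, and 9 rose and 5 fell with OSM (median 0.11), 5 rose and 4 fell with LIF (median 0.063), and 0 changed with IL6. In either direction 53.8% of those tested changed with OSM, against 21.2% of all genes, and 34.6% with LIF, against 7.7%. With OSM the protease inhibitor gene Serpinb2 rose by 5.76, Timp1 by 1.81 and Spp1, which encodes osteopontin, by 1.63. Areg, an EGF receptor ligand, fell by 1.42, Mmp2 by 1.02, the cyclin gene Ccnd1 by 0.79 and the protease gene Plau by 0.55. With LIF, Serpinb2 rose by 1.73, Timp1 by 0.81 and Mmp9 by 0.56, and Ccnd1 fell by 0.98, Areg by 0.83, Plau by 0.48 and Cd44 by 0.38. Without LIF replicate 2 the LIF count was lower, and so was the share of all genes called.

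Most of the listed C/EBP targets had too few counts to be tested. Of 35 listed 21 were not tested, among them the acute-phase genes Saa1, Hp, Orm1 and Crp with at most 3 counts in any library. Of the 14 tested, 7 rose and 1 fell with OSM, 4 rose and 1 fell with LIF, and 0 changed with IL6, with medians of 0.36 with OSM and 0.21 with LIF. In either direction 57.1% of the 14 changed with OSM, against 21.2% of all genes, and 35.7% with LIF, against 7.7%. Saa3, with a mean of 7 counts, passed the filter on low counts through its OSM libraries alone. It is 1 of the 14 tested and of the 7 that rose with OSM (2.05, adjusted p 0.0175). That count and the 57.1% therefore include a gene that entered through its high OSM level. Serpina3n, an acute-phase protease inhibitor, rose by 5.69 with OSM and 4.01 with LIF, the complement gene C3 by 2.48 and 1.39, the copper carrier Cp by 1.47 and 1.11, and the muscle ubiquitin ligase Fbxo32 by 1.17 and 0.44. Lpl fell by 0.998 with OSM, and Slc2a4, which encodes the insulin-responsive glucose carrier, by 0.63 with LIF.

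**Figure D5:**
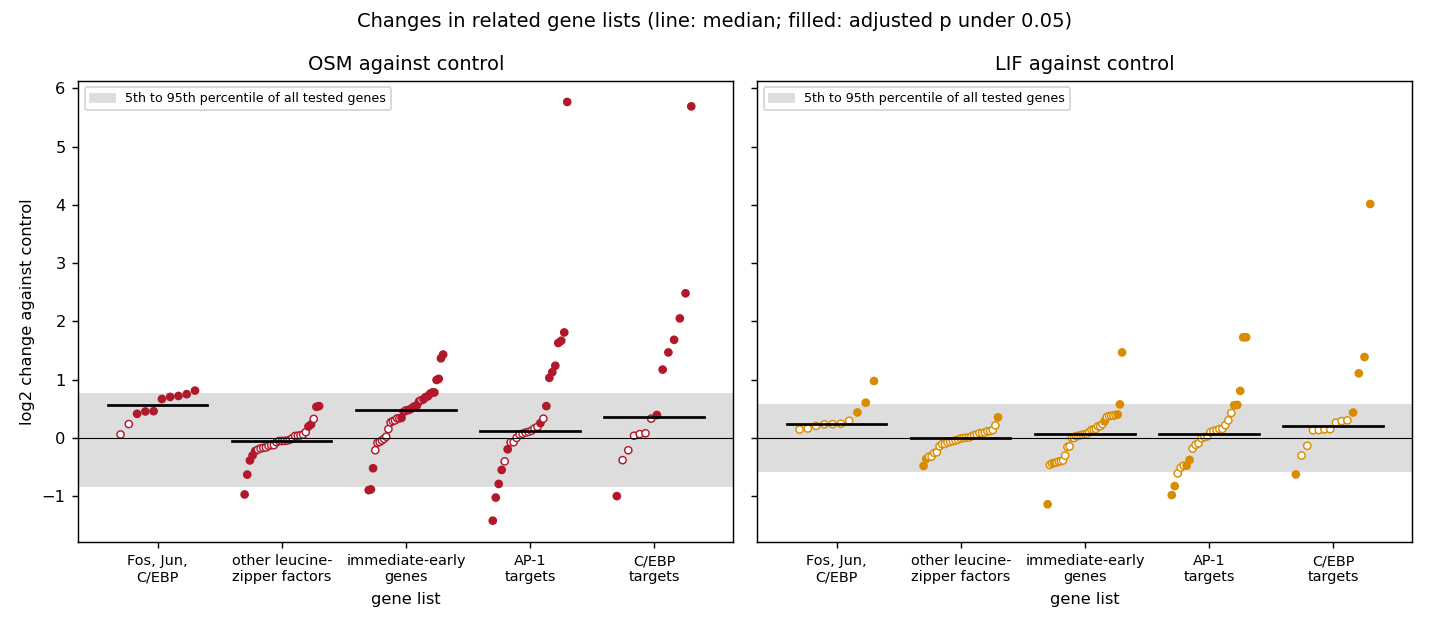
Log2 change against control (vertical axis) with OSM (left) and LIF (right) for each tested gene of the 10 factors and of 4 related lists, sorted within a list, with a line for the median and filled points for an adjusted p under 0.05. The grey band runs from the 5th to the 95th percentile of all tested genes, and the medians of the 10 factors (0.56) and the immediate-early genes (0.47) with OSM lie above those of the other lists.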

How the data were processed

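RNA was measured in 8 libraries of mouse primary myotubes, 2 in each of 4 groups, made with a stranded poly(A) kit, per the labels' protocols. The authors deposited unnormalized counts of reads for each Ensembl gene, in 1 file a library, and did not pool replicates. The submitters' processing notes name FastQC 0.11.9, MultiQC 1.12, Trim Galore 0.6.5, STAR 2.7.3a, HTSeq 0.11.1 and DESeq2 1.34.0 and the build GRCm39 (mm39). The annotation release and strand setting are not given in the sources used here. Summary lines for unassigned reads, 11.7% to 12.7% of alignments, stayed out of library sizes and tests.

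Symbols for 52093 of 53647 identifiers, exon lengths and exon overlaps came from GENCODE M21, an annotation of GRCm38, another build, so no gene coordinates are given. Promoter windows are RefSeq entries of GRCm38.p6 with that build's coordinates. Levels per length rest on M21 exon lengths.

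Counts were tested with edgeR 4.0.16 in R 4.3.3: filterByExpr with a minimum count of 10 (15603 genes), trimmed mean of M values (TMM) scaling, and a robust quasi-likelihood fit of 4 group means to all 8 libraries, which left 4 residual degrees of freedom. P-values were adjusted within each of 6 comparisons. CPM are counts relative to the TMM-scaled size of the library. A gene with 100 counts has a counting error of 10%, and errors from counts cover counting only. The fit was tested on simulated data. Alternatives were DESeq2 1.42.0, other scaling, no filter, 2-group fits, the replicate number as a block, and each library left out.

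All 10 factors were tested in every comparison and enter its counts. Each factor that passed in the reported fit is named with its values. The values of many that did not pass are left out of the text, so the printed values lean towards those that passed. Cebpg aside, at most 4 called genes per direction with a mean of at least 100 counts are named from each related list. A gene this rule picks among the AP-1 targets is not reported here. The members and lists were chosen with earlier results of these data known.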

Additional observations from a re-analysis of the deposited data

How the results depend on the processing

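Over the 6 comparisons and 14 alternatives, the changes of the 10 factors kept direction and side of the threshold in 740 of 840 cases, 54 lost the threshold, 31 gained it and 15 turned sign. A case that kept direction but got no adjusted p from DESeq2 was counted among the 740. Scaling moved no factor by more than 0.027 on the log2 scale. Each turn of sign came from leaving out 1 library, in a change that had not passed, and the cause was not tested. Over the 8 libraries left out in turn, OSM against control ran from −0.020 to 0.15 for Fos. IL6 against control ran from −0.0061 to 0.17 for Fos, −0.14 to 0.26 for Jun, −0.064 to 0.091 for Jund, −0.22 to 0.038 for Cebpb and −0.17 to 0.50 for Cebpd. OSM against LIF ran from −0.062 to 0.28 for Junb and −0.097 to 0.093 for Cebpb, and OSM against IL6 from −0.093 to 0.063 for Fos. LIF against IL6 ran from −0.023 to 0.20 for Fosb, −0.32 to 0.19 for Fosl1 and −0.12 to 0.29 for Jun.

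Leaving out 1 library at a time, the number of the 10 factors called ran from 4 to 8 for OSM against control, 0 to 3 for LIF against control, 0 to 2 for IL6 against control, 0 to 3 for OSM against LIF, 0 to 8 for OSM against IL6 and 0 to 1 for LIF against IL6. For OSM, LIF and IL6 against control in turn, the leucine-zipper partners ran from 4 to 11, 1 to 5 and 0 to 0, the immediate-early genes from 15 to 25, 1 to 9 and 0 to 2, the AP-1 targets from 12 to 15, 5 to 13 and 0 to 2, and the C/EBP targets from 6 to 9, 4 to 6 and 0 to 3. The share of all genes called also changed with the library left out. Against control it was lowest without OSM replicate 1 for OSM and without LIF replicate 2 for LIF. For both it was highest without an IL6 library. These ranges are therefore not to be read as a trait of these genes alone. For OSM against LIF the count of 1 became 2 with the DESeq2 Wald test, 2 with DESeq2-style size factors in edgeR, 0 with upper-quartile scaling and 4 with only the 2 groups compared (8.43%, 7.93%, 8.07% and 19.2% of all genes). Shares for DESeq2 are of the genes it gave an adjusted p. For OSM against IL6 the count of 5 became 8 with DESeq2 (13.4% of all genes). For LIF against IL6 the count of 1 became 0 without a filter on low counts and 0 with 2 groups (1.32% and 2.25% of all genes). For LIF against control, fitting 2 groups gave 5 leucine-zipper partners and 10 immediate-early genes, with 8.36% of all genes. For IL6 against control DESeq2 called 1 C/EBP target, with 0.164% of all genes.

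The labels number the replicates but do not say that a number marks a shared animal or day. Deviations of same-numbered libraries correlated across genes at 0.012 to 0.17 over the 6 pairs of groups. The numbers were not taken as pairs, though low positive values like these do not exclude a shared source. With a replicate block the number of the 10 factors called was 8 for OSM against control, 3 for LIF against control, 0 for IL6 against control, 4 for OSM against LIF, 8 for OSM against IL6 and 3 for LIF against IL6, beside 25.4%, 10.6%, 0.0577%, 11.3%, 19.2% and 5.33% of all genes, and 1 C/EBP target was called for IL6 against control. Without the block these shares of all genes were lower, at 21.2%, 7.7%, 0%, 8.02%, 15.6% and 2.76%. Depth limits Fosb most, at 51 to 108 counts.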

Other observations

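Ccn1 and Ccn2, matricellular genes commonly induced with immediate-early genes, separated OSM from LIF, and were singled out here after their values were seen. Ccn1 was at 60.6 ± 11.3 CPM in control (SD, n = 2), 66.4 ± 6.41 with IL6, 44.96 ± 1.70 with LIF and 102.4 ± 1.91 with OSM. It rose by 0.76 with OSM (edgeR adjusted p 0.000415) and fell by 0.43 with LIF (adjusted p 0.0375), and the direct difference of OSM and LIF was 1.19 (SE 0.11, adjusted p 5.43e-05). Ccn2 differed between OSM and LIF by 1.47 (SE 0.24, adjusted p 0.00159). Egr1 also differed between them, by 0.76 (SE 0.17, adjusted p 0.0187), with 29.8 ± 2.52 CPM with OSM and 17.6 ± 3.30 with LIF, although neither cytokine passed against control. Over the 35 immediate-early genes tested, 15 were higher with OSM than with LIF and 0 lower, where 4.06% of all genes were higher.

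Among 10745 protein-coding genes averaging 100 counts or more, those most like Fosl2 over the 8 libraries by Pearson correlation of log2 CPM were Ndrg2 (0.995), Selenok (0.993) and Cdh23 (0.993). Those most like Jund were Prrx2 (0.991), Spr (0.979) and Wdr81 (0.978), and those most like Fosl1 were Ddx6 (0.984), Cdh6 (0.984) and Zfp386 (0.984). Ddx6 did not pass with OSM (log2 change 0.10, edgeR adjusted p 0.230) or LIF (0.030, adjusted p 0.838). The 8 libraries fall in 4 groups, and these values mix differences between groups with those between replicates. The part of each was not tested, and the values are a description with no test.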
